A study of Mus musculus with 15 samples.

Results

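The mRNAs of the matrix metalloproteinases (MMPs), of the ADAM and ADAMTS proteases and of their tissue inhibitors (TIMPs) were followed through adipocyte differentiation in the 3T3-L1 line. These are mouse preadipocytes that begin to store lipid once confluent cells are treated with insulin, dexamethasone and IBMX. Members were all genes whose mouse symbol begins with Mmp or Adam followed by a digit or with Adamts, or is one of Timp1 to Timp4, with pseudogenes left out and at least 10 counts summed over the 15 libraries. Of 84 matching symbols, 1 was annotated as a pseudogene (Mmp1a) and 28 fell short of the count minimum. The remaining 55, of 25700 gene identifiers in all, were 17 MMPs, 15 ADAMs, 14 ADAMTS proteases, 5 ADAMTS-like proteins and 4 TIMPs. Enough counts for a test were present for 41 of the 55 members, among 12279 genes tested in all.

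RNA was sequenced from 5 groups of 3 libraries each. By their labels they were MIGA2-GFP cells (overexpressing that fusion) at day 6, MIGA2-KO cells (depleted of MIGA2) at day 6, wild-type (WT) cells at day 6, MIGA2-KO cells at day 0 and WT cells at day 0. By call, Miga2 mRNA differed from WT under neither label, with uneven MIGA2-KO libraries at day 6, as given below. MIGA2-GFP and MIGA2-KO therefore name libraries so labelled throughout. Day 0 is the addition of the differentiation cocktail to 3T3-L1 cells held at confluence, and MIGA2 (mitoguardin 2) sits in the outer membrane of mitochondria. The labels state neither whether a line is 1 clone, nor in which background MIGA2-GFP was expressed, nor whether replicates were separate cultures. The p-values therefore reflect no more than the spread among these samples.

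MMPs are secreted or membrane-bound zinc endopeptidases that are made as inactive precursors and together cut most proteins of the extracellular matrix. ADAMs are membrane-anchored relatives that release the outer domains of growth factors, receptors and adhesion proteins, and ADAMTS proteases are secreted, trimming procollagens and cutting proteoglycans such as versican. TIMPs block the active site of these enzymes. In adipose tissue the collagen network around fat cells is remodelled as they enlarge, and cell-surface collagen cleavage by MMP14 is known to be required for normal white fat development in mice.

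Among the member MMPs, 7 genes lie close together on chromosome 9 (GRCm38, 7272514 to 7581885) in the order Mmp13, Mmp12, Mmp1b, Mmp3, Mmp10, Mmp8 and Mmp27. Mmp1a, left out as a pseudogene, lies between Mmp3 and Mmp10. The 120 bases upstream of the RefSeq start site (GRCm38.p6) are shown for 6 of the 7 members because these neighbours fell into different patterns of expression. Capitals mark matches to TGANTCA, the letters bound by the AP-1 factors Jun and Fos. The windows are chr9:7272394-7272513, chr9:7445702-7445821, chr9:7502222-7502341, chr9:7558309-7558428 and chr9:7571276-7571395 on the forward strand, and chr9:7388027-7388146 on the reverse strand.
Mmp13: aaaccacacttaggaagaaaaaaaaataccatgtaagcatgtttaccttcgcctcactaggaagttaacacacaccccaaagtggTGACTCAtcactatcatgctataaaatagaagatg
Mmp1b: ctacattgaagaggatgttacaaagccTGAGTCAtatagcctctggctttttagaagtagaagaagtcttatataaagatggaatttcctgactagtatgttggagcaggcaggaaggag
Mmp3: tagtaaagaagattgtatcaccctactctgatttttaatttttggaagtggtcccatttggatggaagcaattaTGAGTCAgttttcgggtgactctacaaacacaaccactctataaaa
Mmp10: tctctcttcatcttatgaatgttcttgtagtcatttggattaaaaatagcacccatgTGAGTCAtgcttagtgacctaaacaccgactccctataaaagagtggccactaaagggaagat
Mmp8: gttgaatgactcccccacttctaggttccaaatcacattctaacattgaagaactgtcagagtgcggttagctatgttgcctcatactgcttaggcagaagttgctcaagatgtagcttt
Mmp27: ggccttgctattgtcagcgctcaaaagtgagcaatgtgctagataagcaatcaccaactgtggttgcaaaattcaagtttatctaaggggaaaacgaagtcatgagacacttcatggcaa

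The match began at position -35 from the start site in Mmp13, -46 in Mmp3, -63 in Mmp10 and -93 in Mmp1b. The windows of Mmp8 and Mmp27 held none. For Mmp12 the window of the RefSeq start 16 bases from the annotated gene start also held none. A match was present only upstream of another RefSeq start, 2993 bases from the gene start, and neither Mmp12 sequence is shown. A RefSeq window of 300 bases (250 before and 50 from the start site on) was present for 35 of the 55 members. Read on both strands, TGANTCA occurred in 6 of the 39 windows of these members, 1 each in Adam19, Mmp10, Mmp12, Mmp13, Mmp1b and Mmp3, against 7.81% of 32851 windows of that length. TTGCNNAA, a C/EBP motif, occurred in 7 of the 39 (Adam15, Adam8, Mmp10, Mmp12, Mmp27, Mmp3 and Mmp8), against 10.8% of windows. No member window held the PPAR motif (AGGNCA, any 1 base, AGGNCA), which 0.381% of windows held, the glucocorticoid receptor motif ACANNNTGT (6.85%), or the NF-kB motif (GGGANN followed directly by TTCC, 1.47%). These are letter matches in a fixed window and do not show binding, and their relation to the members' levels was not tested.

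Library totals ran from 10748668 to 26003871 counts. Summed over 8 adipocyte markers, the level was 20107 to 21814 CPM (counts over TMM-scaled library totals) in day 6 MIGA2-GFP cells, 5857 to 9421 in day 6 MIGA2-KO cells, 30641 to 44722 in day 6 WT cells, 26.1 to 27.6 in day 0 MIGA2-KO cells and 32.2 to 49.8 in day 0 WT cells. Not all markers followed the sum in MIGA2-GFP. Plin1 averaged 862 CPM in MIGA2-GFP and 557 in day 6 WT cells, and Slc2a4 346 in MIGA2-GFP and 209 in WT. Lipe was close in both, at 763 and 796, and the other markers were lower in MIGA2-GFP by mean. Miga2 mRNA, the check of the labels, stood at 925, 74.4 and 69.99 CPM in the libraries labelled MIGA2-KO at day 6, against 145, 159 and 182 in day 6 WT cells, and at 17.2, 21.4 and 22.5 in day 0 MIGA2-KO cells, against 15.6, 17.7 and 13.6 in day 0 WT cells. In MIGA2-GFP it was 166, 155 and 158 CPM, with no call against WT (log2 fold change -0.021 ± 0.67, adjusted p = 0.985). Nor did it differ by call between MIGA2-KO and WT at day 6 (log2 fold change 1.14 ± 0.67, adjusted p = 0.157) or at day 0 (0.38 ± 0.71, adjusted p = 0.708). The 925 CPM came from MIGA2-KO day 6 replicate 1, while replicates 2 and 3 lay below every day 6 WT library. The Miga2 test was not repeated without replicate 1. Gene-level counts do not show whether a lesion leaves the transcript in place, nor whether transgene reads were counted. Replicate 1 stood apart from replicates 2 and 3 in 3 groups (day 6 MIGA2-KO, day 6 WT and day 0 WT cells), with correlations of log2 CPM across genes of 0.9657 to 0.9756, against 0.9861 to 0.993 between replicates 2 and 3. The genes counted below were therefore also counted with these 3 libraries left out. In bulk RNA, fewer cells of a type and less RNA per cell cannot be told apart.

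Per kilobase of exon, the gelatinase Mmp2 carried the highest level of all 55 members in each of the 5 groups. It averaged 308 ± 8.07 CPM per kb (mean ± SD, n = 3) in MIGA2-GFP, 903 ± 200.1 in MIGA2-KO and 715 ± 34.5 in WT on day 6, with 625 ± 11.3 in MIGA2-KO and 917 ± 28.9 in WT before differentiation. Timp2 and then Mmp14 came next in every group except WT at day 6, where Mmp19 ranked above both. This order below Mmp2 depends on the length used: per kilobase of the longest transcript Mmp14 exceeded Timp2 in all 5 groups, and Mmp19 in day 6 WT cells, while Mmp2 was still first in each. On the same scale the 4 TIMPs summed to 121 ± 3.24 in MIGA2-GFP, 395 ± 59.1 in MIGA2-KO and 116 ± 2.24 in WT on day 6, with 563 ± 8.47 in MIGA2-KO and 492 ± 8.37 in WT before differentiation. The 15 ADAMs varied less, with sums of 180.1 ± 2.06 CPM per kb in MIGA2-GFP, 173 ± 12 in MIGA2-KO and 167 ± 14.6 in WT on day 6, 167 ± 2.7 in day 0 MIGA2-KO cells and 122 ± 22.6 in day 0 WT cells.

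Over differentiation of WT cells the matrix-degrading enzymes and their inhibitors fell more often than they rose. Of 41 tested members 9 were higher and 23 lower at day 6 than at day 0 (edgeR quasi-likelihood test, Benjamini-Hochberg adjusted p under 0.05 over all genes). Among all 12279 genes 31.7% were called higher and 33.1% lower (64.8% in either direction), against 22% and 56.1% of members. The median log2 fold change was -0.69 over the tested members and -0.041 over all genes. By family, 7 of 12 MMPs, 7 of 11 ADAMTS proteases, 5 of 11 ADAMs, 3 of 4 TIMPs and 1 of 3 ADAMTS-like proteins were lower. Preadipocyte and fibroblast markers (Pdgfra, Pdgfrb, Dlk1, Thy1, Col1a1 and Ly6a, 6 of 6 detected) summed to 2174 to 2491 CPM in day 6 WT cells, against 9117 to 13007 in day 0 WT cells. The part of this shift in the members' changes was not tested.

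In MIGA2-KO cells 12 of 41 members were higher and 14 lower at day 6 than at day 0, against 23.3% and 21% of all genes (44.3% in all). The members' median log2 fold change was -0.22, against 0.018 for all genes. Set beside the WT time course, which shares no library with it, 8 members were higher in both lines and 12 lower in both (19.5% and 29.3% of members, against 18.3% and 16.7% of all genes). A further 9 (22%, against 15.6% of all genes) were lower in WT and not called in MIGA2-KO: Adam10, Adam19, Adam23, Adam5, Adamts1, Adamtsl5, Mmp11, Mmp14 and Timp2. Adamts2 and Mmp2 were lower in WT and higher in MIGA2-KO, as were 0.863% of all genes, and Adamts9 was higher in WT and not called in MIGA2-KO, as were 12.9%. Adam1a and Mmp27 were higher and Adam33 and Adamts14 lower in MIGA2-KO without a call in WT, and 5 members (12.2%, against 27.3% of all genes) were called in neither line. Tested directly, the change over time in MIGA2-KO exceeded that in WT for 15 members and lay below it for 7, against 13.7% and 13.6% of all genes (27.2% in all). The median of this difference was 0.89 on the log2 scale over members and 0.022 over all genes. With the 3 libraries that stand apart left out, 23 members had the higher and 10 the lower change in MIGA2-KO. Over all genes these counts also rose, from 1678 to 3987 for the higher and from 1668 to 3669 for the lower change. Without WT day 0 replicate 3 the number of members with the lower change was 4.

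**Figure D1:**
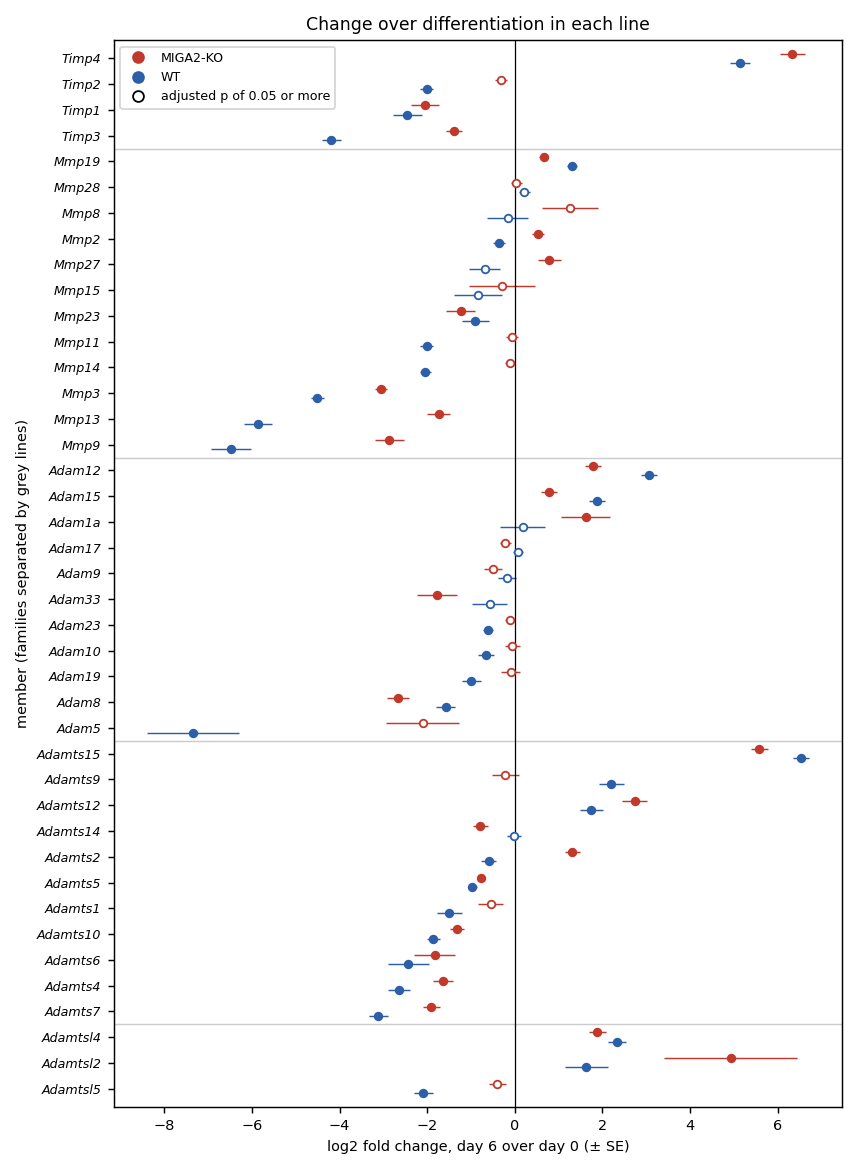
Log2 fold change (x axis) of each tested member (y axis, grouped by family) at day 6 over day 0 in MIGA2-KO (red) and WT (blue) cells, with bars of 1 SE and open circles where the adjusted p was 0.05 or more. Timp3, Mmp13 and Mmp9 lie far to the left in WT, at -4.19, -5.87 and -6.48, and less far in MIGA2-KO, at -1.38, -1.73 and -2.86, while Adamts15 and Timp4 lie far to the right in both.

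At day 6 more members stood higher than lower in MIGA2-KO against WT cells. There 20 of 41 members were higher and 8 lower, against 29.2% and 31.5% of all genes (60.7% in all). The median log2 fold change was 0.47 over members and -0.010 over all genes. The MMPs made up 8 of the higher members and the ADAMTS proteases 6. The preadipocyte and fibroblast markers summed to 4446 to 8752 CPM in day 6 MIGA2-KO cells, against 2174 to 2491 in day 6 WT cells. Most of that sum was Col1a1, with a mean of 6074 CPM in MIGA2-KO and 1519 in WT, and 3 of the 6 were not higher in MIGA2-KO by mean. Dlk1 averaged 186 CPM in MIGA2-KO and 339 in WT, Thy1 106 in MIGA2-KO and 122 in WT, and Ly6a 75.8 in MIGA2-KO and 79.4 in WT. The sum of 6 chondrocyte and osteoblast markers (mostly Sox9 and Runx2, with no Acan count in any library) was 67.3 to 89.3 in MIGA2-KO, against 22.4 to 27.3 in WT. Their part in the members' difference was not tested. With the 3 libraries that stand apart left out the counts were 22 higher and 11 lower, and the counts over all genes at this setting are not given here.

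Before differentiation 12 of 41 members were higher and 7 lower in MIGA2-KO than in WT, against 16.1% and 17.7% of all genes (33.9% in all). The median log2 fold change was 0.012 over members and -0.030 over all genes. The count of lower members was 16 with the 3 libraries left out and 4 without MIGA2-KO day 0 replicate 1. Over all genes the count of higher genes was 3071 with the 3 libraries left out (1981 in the main fit). The count of lower genes over all genes at that setting is not given here, so the 16 lower members have no matching share. Without MIGA2-KO day 0 replicate 1, 1383 genes were lower (2178 in the main fit). In MIGA2-GFP at day 6, 6 members were higher and 8 lower than in day 6 WT cells, against 16.5% and 18.9% of all genes (35.3% in all). The median was -0.048, against 0.0023 for all genes. In the main fit the share of members called was thus near that of all genes in this comparison. After correction for GC content and length 15 members were lower in MIGA2-GFP, and the count of lower genes over all genes at that setting is not given here. With the 3 libraries left out 10 members were higher and 11 lower, and over all genes the counts also rose, to 3799 higher and 3826 lower.

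Timp2, the inhibitor that also docks pro-MMP2 onto MMP14 at the cell surface (ENSMUSG00000017466, GRCm38 chromosome 11: 118301069 to 118355740, reverse strand), stood at 305, 313 and 328 CPM in MIGA2-GFP, 1085, 1596 and 1559 in MIGA2-KO and 376, 328 and 313 in WT, all at day 6. At day 0 it stood at 1733, 1739 and 1777 in MIGA2-KO and 1186, 1444 and 1471 in WT. All WT libraries at day 6 lay below those at day 0 and below all MIGA2-KO libraries at day 6, and MIGA2-GFP overlapped WT. The WT fall passed the test (log2 fold change -2.01 ± 0.14 SE, adjusted p = 1.27e-08), the MIGA2-KO change did not (-0.31 ± 0.14, adjusted p = 0.0826), and the difference between the 2 changes did (1.70 ± 0.20, adjusted p = 2.44e-05). MIGA2-KO exceeded WT at day 6 (2.06 ± 0.14, adjusted p = 5.82e-08). At day 0 the difference of 0.36 ± 0.14, adjusted p = 0.0578 did not pass, although the MIGA2-KO libraries lay above all WT libraries, and it passed with the 3 libraries left out (0.27, adjusted p = 0.000343). Without WT day 0 replicate 3 it was 0.41 and passed (adjusted p = 0.0476), and without MIGA2-KO day 6 replicate 2 the MIGA2-KO change over time was -0.40 (adjusted p = 0.0485).

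Timp3, the TIMP that binds to the matrix and also inhibits ADAM17 and several ADAMTS proteases (ENSMUSG00000020044, chromosome 10: 86300372 to 86349506, forward strand), stood at 0.768, 1.14 and 0.761 CPM in MIGA2-GFP, 23.8, 30.5 and 29.6 in MIGA2-KO and 3.89, 2.44 and 2.52 in WT, all at day 6. At day 0 there were 74, 73.8 and 70.5 CPM in MIGA2-KO and 38.8, 58.5 and 64.7 in WT. The order MIGA2-KO, WT, MIGA2-GFP at day 6 held without overlap between libraries. Timp3 fell over time in MIGA2-KO (-1.38 ± 0.18, adjusted p = 2.29e-05) and further in WT (-4.19 ± 0.23, adjusted p = 6.57e-10), and the changes differed by 2.81 ± 0.29, adjusted p = 8.29e-06. At day 6 it was higher in MIGA2-KO than in WT (3.24 ± 0.23, adjusted p = 6.08e-08) and lower in MIGA2-GFP than in WT (-1.70 ± 0.32, adjusted p = 0.00113). Its exons overlap Syn3 on the opposite strand, for which 42 counts were listed over all libraries against 7982 for Timp3.

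Timp1 and Timp4 followed other courses. Timp1, a broadly inducible inhibitor (ENSMUSG00000001131, chromosome X: 20870166 to 20874735, forward strand), stood at 33.8, 30.3 and 32.4 CPM in MIGA2-GFP, 37.7, 15 and 15.2 in MIGA2-KO and 15.8, 22.3 and 27.4 in day 6 WT cells, and at 93.8, 90.03 and 95.9 in MIGA2-KO and 166, 92.7 and 98.8 in day 0 WT cells. It fell in MIGA2-KO (-2.04 ± 0.32, adjusted p = 0.000106) and in WT (-2.45 ± 0.32, adjusted p = 9.65e-06). MIGA2-KO and WT libraries overlapped at day 6, where the difference of 0.053 ± 0.32, adjusted p = 0.896 turned to -0.52 without MIGA2-KO day 6 replicate 1 and to -0.13 without WT day 6 replicate 1. It passed in opposite directions with the 3 libraries left out (-0.70, adjusted p = 1.23e-05) and after correction for GC content and length (0.93, adjusted p = 0.00333). Timp4 (ENSMUSG00000030317, chromosome 6: 115241892 to 115252205, reverse strand), the inhibitor known for its restricted expression in heart and adipose tissue, stood at 18.6, 19.5 and 19.6 CPM in MIGA2-GFP, 15.9, 18.1 and 19.3 in MIGA2-KO and 19.3, 24.5 and 21.7 in day 6 WT cells. At day 0 all libraries were under 1 CPM, with 0.0802, 0.306 and 0.243 in MIGA2-KO and 0.896, 0.508 and 0.455 in WT. It rose over time in MIGA2-KO (6.34 ± 0.29, adjusted p = 3.82e-10) and in WT (5.15 ± 0.22, adjusted p = 6.78e-11), and the difference between the changes did not pass (adjusted p = 0.0646). The libraries of MIGA2-KO and WT overlapped at day 6 (-0.29 ± 0.17, adjusted p = 0.149), and the difference passed after correction for GC content and length (-0.69, adjusted p = 0.00533) and with the 3 libraries left out (-0.29, adjusted p = 0.049). The lower day 0 level in MIGA2-KO (-1.48 ± 0.42, adjusted p = 0.014) was no longer called without WT day 0 replicate 1 (-1.16) or MIGA2-KO day 0 replicate 1 (-1.11), or with the 3 libraries left out (-1.16, adjusted p = 0.057). Timp4 rose over time in both lines, while Timp1, Timp2 and Timp3 were lower in day 6 WT cells than at day 0. Exons of Timp4 overlap Syn2 on the opposite strand over 90 bases, with 9579 counts for Syn2 against 2045 for Timp4. The strand setting of the counting was not stated, so the Timp4 counts are uncertain.

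**Figure D2:**
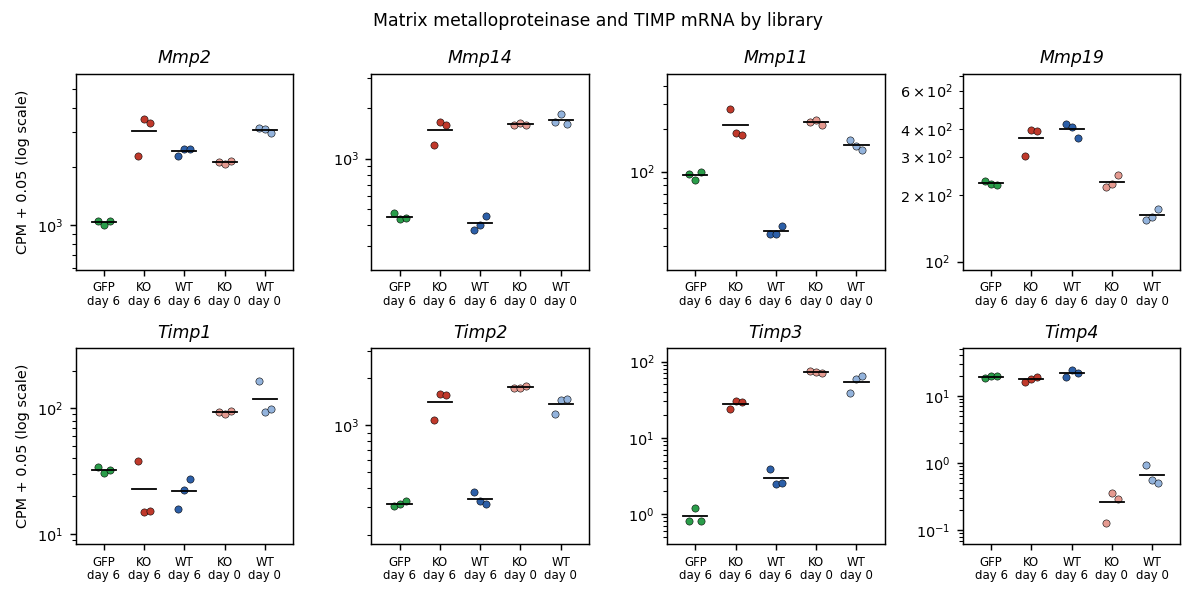
CPM plus 0.05 on a log axis for 4 MMPs (top) and 4 TIMPs (bottom) in each library, by group from MIGA2-GFP day 6 on the left to WT day 0 on the right, with the group mean as a line. Timp2, Timp3, Mmp14 and Mmp11 are low in day 6 WT cells and higher in day 6 MIGA2-KO cells, and Timp4 is high in every day 6 group.

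Mmp14, the membrane-type collagenase that activates pro-MMP2 (ENSMUSG00000000957, chromosome 14: 54431612 to 54445364, forward strand), stood at 476, 438 and 439.9 CPM in MIGA2-GFP, 1204, 1645 and 1579.9 in MIGA2-KO and 378, 404 and 456 in WT, all at day 6. On day 0 the level was 1594, 1619 and 1576 in MIGA2-KO and 1659.8, 1840.5 and 1596 in WT. WT libraries at day 6 lay far below those at day 0, while MIGA2-KO libraries at day 6 overlapped their day 0 libraries. Over time the fit gave log2 fold change -2.04 ± 0.12 SE, adjusted p = 2.29e-09, in WT and -0.11 ± 0.12, adjusted p = 0.475, in MIGA2-KO, and the 2 changes differed (1.93 ± 0.17, adjusted p = 2.21e-06). The MIGA2-KO estimate turned to 0.015 without MIGA2-KO day 6 replicate 1. MIGA2-KO exceeded WT at day 6 (1.84 ± 0.12, adjusted p = 4.19e-08). MIGA2-GFP overlapped WT (0.13 ± 0.12, adjusted p = 0.418).

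Mmp2, gelatinase A and the substrate of MMP14 (ENSMUSG00000031740, chromosome 8: 92827291 to 92853420, forward strand), stood at 1055, 1008 and 1055 CPM in MIGA2-GFP, 2271, 3514 and 3347 in MIGA2-KO and 2275, 2478 and 2474 in WT, all at day 6. Before differentiation it stood at 2104, 2069 and 2145 in MIGA2-KO and 3153, 3141 and 2978 in WT. The MIGA2-GFP libraries were the lowest of the series, below every WT library at day 6 (log2 fold change -1.21 ± 0.13 SE, adjusted p = 2.55e-05). Mmp2 rose over time in MIGA2-KO (0.53 ± 0.13, adjusted p = 0.00428) and fell in WT (-0.36 ± 0.13, adjusted p = 0.0263), and the changes differed by 0.89 ± 0.19, adjusted p = 0.0027. The small WT fall was no longer called without replicate 2 of WT day 0 (-0.35) or replicate 1 of WT day 6 (-0.32), nor with only the groups compared in the fit (adjusted p = 0.0589). At day 0 Mmp2 was lower in MIGA2-KO than in WT (-0.55 ± 0.13, adjusted p = 0.00572). The day 6 excess in MIGA2-KO over WT (0.34 ± 0.13, adjusted p = 0.0375) had overlapping libraries. It lost its call without any 1 of the WT day 6 libraries (0.30, 0.37 and 0.37) and without MIGA2-KO day 6 replicate 2 (0.23) or 3 (0.27), and also with a replicate block (adjusted p = 0.0534) and with only the groups compared (adjusted p = 0.128).

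Mmp11, stromelysin-3, an MMP that is activated inside the cell (ENSMUSG00000000901, chromosome 10: 75923222 to 75936496, reverse strand), stood at 96.6, 87.4 and 99.3 CPM in MIGA2-GFP, 275, 188 and 180.4 in MIGA2-KO and 36.2, 36.6 and 41.3 in WT, all at day 6. At day 0 it stood at 223, 229.9 and 215 in MIGA2-KO and 166, 152 and 143 in WT. Every WT library at day 6 lay below every other library of the series. Mmp11 fell in WT (log2 fold change -2.01 ± 0.14 SE, adjusted p = 1.47e-08) and the change in MIGA2-KO did not pass (-0.055 ± 0.14, adjusted p = 0.785), with a difference of 1.96 ± 0.20, adjusted p = 7.42e-06. Without MIGA2-KO day 6 replicate 1 the MIGA2-KO change was -0.27 and passed (adjusted p = 0.0431), and without replicate 2 or 3 it was 0.034 or 0.056. At day 6 it was higher than in WT both in MIGA2-GFP (1.31 ± 0.14, adjusted p = 2.46e-05) and in MIGA2-KO (2.49 ± 0.15, adjusted p = 1.49e-08), and at day 0 it was higher in MIGA2-KO (0.54 ± 0.14, adjusted p = 0.0086).

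Mmp19 was the MMP that rose in both lines. It stood at 232, 226 and 223 CPM in MIGA2-GFP, 302, 395 and 393 in MIGA2-KO and 424, 412 and 364 in WT, all at day 6, and at 217, 226 and 248 in MIGA2-KO and 155, 159 and 173 in day 0 WT cells. The day 6 libraries lay above the day 0 libraries within each line, in MIGA2-KO (0.66 ± 0.11, adjusted p = 0.000211) and in WT (1.30 ± 0.11, adjusted p = 1.08e-07), and the rise was smaller in MIGA2-KO (-0.65 ± 0.16, adjusted p = 0.007). MIGA2-GFP lay below WT at day 6 (-0.82 ± 0.11, adjusted p = 0.000128). Exons of Tmem198b overlap Mmp19 on the opposite strand, with 6401 counts in all against 54345, and whether counting used strand was not stated in the labels. Mmp28, epilysin, did not pass over time in either line but was higher than in WT in day 6 MIGA2-GFP cells (0.63 ± 0.13, adjusted p = 0.00199), in day 6 MIGA2-KO cells (0.68 ± 0.13, adjusted p = 0.000424) and in day 0 MIGA2-KO cells (0.86 ± 0.13, adjusted p = 0.000213). Mmp23 averaged 39.8 ± 1.45 CPM in MIGA2-GFP, 15.6 ± 8.27 in MIGA2-KO and 32.3 ± 10.4 in day 6 WT cells, and 36.7 ± 0.928 in MIGA2-KO and 60.3 ± 23.4 in day 0 WT cells (SD, n = 3 each). It fell over time in MIGA2-KO (-1.24 ± 0.33, adjusted p = 0.00667). The WT fall (-0.90 ± 0.31, adjusted p = 0.0208) was lost without replicate 1 of WT day 0 (-0.55), or replicate 1 (-0.69) or 2 of WT day 6 (-0.90). The lower level in MIGA2-KO than in day 6 WT cells (-1.05 ± 0.33, adjusted p = 0.0127) was lost without WT day 6 replicate 3 (-0.79), MIGA2-KO day 6 replicate 2 (-0.86) or replicate 3 (-0.82), and after correction for GC content and length (-0.39), and it was -1.77 with the 3 libraries left out. Mmp15, a membrane-type MMP, averaged under 2 CPM in every group and passed in no comparison.

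The collagenase, stromelysin and gelatinase B known as inducible MMPs (Mmp13, Mmp3 and Mmp9) were among the members that fell furthest in WT. Mmp3, stromelysin-1 (ENSMUSG00000043613, chromosome 9: 7445822 to 7455975, forward strand), stood at 4.27, 6.18 and 5.23 CPM in MIGA2-GFP, 30.2, 34.7 and 36.9 in MIGA2-KO and 10.2, 10.1 and 8.34 in WT (day 6), against 287, 276 and 278 in MIGA2-KO and 241, 189 and 225 in day 0 WT cells. It fell in MIGA2-KO (-3.05 ± 0.13, adjusted p = 2.58e-10) and further in WT (-4.51 ± 0.15, adjusted p = 4.73e-12), and the changes differed by 1.46 ± 0.19, adjusted p = 5.8e-05. The 3 lines at day 6 did not overlap, with MIGA2-KO above WT (1.82 ± 0.14, adjusted p = 1.5e-07) and MIGA2-GFP below WT (-0.87 ± 0.16, adjusted p = 0.000889). At day 0 a small excess in MIGA2-KO (0.36 ± 0.12, adjusted p = 0.0351) lost its call without WT day 0 replicate 2 (0.27), without MIGA2-KO day 0 replicate 1, 2 or 3 (0.36, 0.38 and 0.37), with only the groups compared (adjusted p = 0.0545) and with a replicate block (adjusted p = 0.0656).

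Mmp13, collagenase-3 (ENSMUSG00000050578, chromosome 9: 7272514 to 7283331, forward strand), stood at 0.597, 0.916 and 1.05 CPM in MIGA2-GFP, 4.26, 1.81 and 3.48 in MIGA2-KO and 1.27, 0.682 and 0.388 in WT, all at day 6. On day 0 the level was 10.6, 11.7 and 9.4 CPM in MIGA2-KO and 42, 46.4 and 51.3 in WT. Unlike Mmp3, it was lower in MIGA2-KO than in day 0 WT cells (-2.14 ± 0.23, adjusted p = 1.86e-05) and then higher at day 6 (2.00 ± 0.37, adjusted p = 0.000365), with no overlap at either day. It fell by less in MIGA2-KO (-1.73 ± 0.26, adjusted p = 8.45e-05) than in WT (-5.87 ± 0.32, adjusted p = 6.99e-10), and the difference of 4.14 ± 0.43, adjusted p = 9.59e-06 was the largest of any tested member after that of Adam5, which did not pass. With the 3 libraries left out the WT change was -6.47. Mmp9, gelatinase B (ENSMUSG00000017737, chromosome 2: 164940780 to 164955850, forward strand), lies on another chromosome and stood at 0, 0.153 and 0.381 CPM in MIGA2-GFP, 3.91, 1.32 and 1.83 in MIGA2-KO and 0.0904, 0.585 and 0.194 in WT (day 6), against 17.2, 17.8 and 16.2 in MIGA2-KO and 28, 27.4 and 23.2 in day 0 WT cells. It fell in MIGA2-KO (-2.86 ± 0.34, adjusted p = 6.38e-06) and in WT (-6.48 ± 0.46, adjusted p = 1.35e-08), and the changes differed by 3.62 ± 0.64, adjusted p = 0.000876. All MIGA2-KO libraries at day 6 exceeded all WT libraries (3.00 ± 0.58, adjusted p = 0.000494). Without WT day 6 replicate 2 these values were -7.46 for the WT change, 4.60 for the difference and 3.99 for MIGA2-KO over WT at day 6, and with the 3 libraries left out the last was 2.00. Mmp9 and Mmp12 are also known as macrophage products. Of the macrophage markers Ptprc had no count in any library and Adgre1 had 1 in day 6 WT cells and none elsewhere. The 6 macrophage markers summed to 9.7 to 15.7 CPM in day 6 WT cells, against 71.1 to 102 in day 0 WT cells, and the part of this sum, which is mostly Lyz2, in the members' values was not tested.

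Along the chromosome 9 cluster, the low-count genes Mmp10, Mmp1b and Mmp12 were at 0 counts in day 6 WT cells. Mmp10, stromelysin-2, had 0 counts in day 6 WT cells and 27 in day 0 WT cells, which makes it at least 3.8-fold lower taking 3 counts per group as the floor. Here and below, a fold given as at least takes the count of the other group as exact and is not a confidence limit. It had 0 counts in day 6 MIGA2-KO cells and 6 in day 0 MIGA2-KO cells (at least 1.85-fold lower). Mmp1b, a mouse relative of interstitial collagenase, had 0 counts in day 6 WT cells and 32 in day 0 WT cells (at least 4.51-fold lower), and 1 count in day 6 MIGA2-KO cells and 7 at day 0, a ratio of 0.154 (95% interval 0.00342 to 1.2). Mmp12, macrophage elastase, had 0 counts in day 6 WT cells and 12 in day 0 WT cells (at least 1.69-fold lower). Mmp12 and Mmp1b share exon sequence on opposite strands, so their counts are uncertain. Mmp8 and Mmp27 did not fall by call in WT, on 28 and 25 counts in day 6 WT cells. Mmp8, neutrophil collagenase, had 0.171, 0.0763 and 0.0952 CPM in MIGA2-GFP, 0.348, 1.15 and 0.609 in MIGA2-KO and 1.08, 0.487 and 1.07 in WT on day 6, with 0.401, 0.153 and 0.324 in MIGA2-KO and 0.424, 1.32 and 1.16 in WT before differentiation. Mmp8 was lower in MIGA2-GFP than in day 6 WT cells (-2.87 ± 0.76, adjusted p = 0.0101), on 4 counts in MIGA2-GFP over 3 libraries, and lower in MIGA2-KO than in day 0 WT cells (-1.73 ± 0.56, adjusted p = 0.0274). Mmp27 had 0.939, 0.687 and 1.43 CPM in MIGA2-GFP, 3.91, 4.78 and 4.87 in MIGA2-KO and 1.08, 0.779 and 0.485 in day 6 WT cells, and 2.57, 2.68 and 2.59 in MIGA2-KO and 0.896, 1.22 and 1.7 in day 0 WT cells. It was higher in MIGA2-KO than in day 6 WT cells (2.51 ± 0.33, adjusted p = 1.85e-05) and at day 0 (1.03 ± 0.28, adjusted p = 0.0126). Its rise over time in MIGA2-KO (0.79 ± 0.27, adjusted p = 0.0275) was lost without any 1 library of the 2 groups except MIGA2-KO day 6 replicate 1 (values 0.73 to 0.81).

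**Figure D3:**
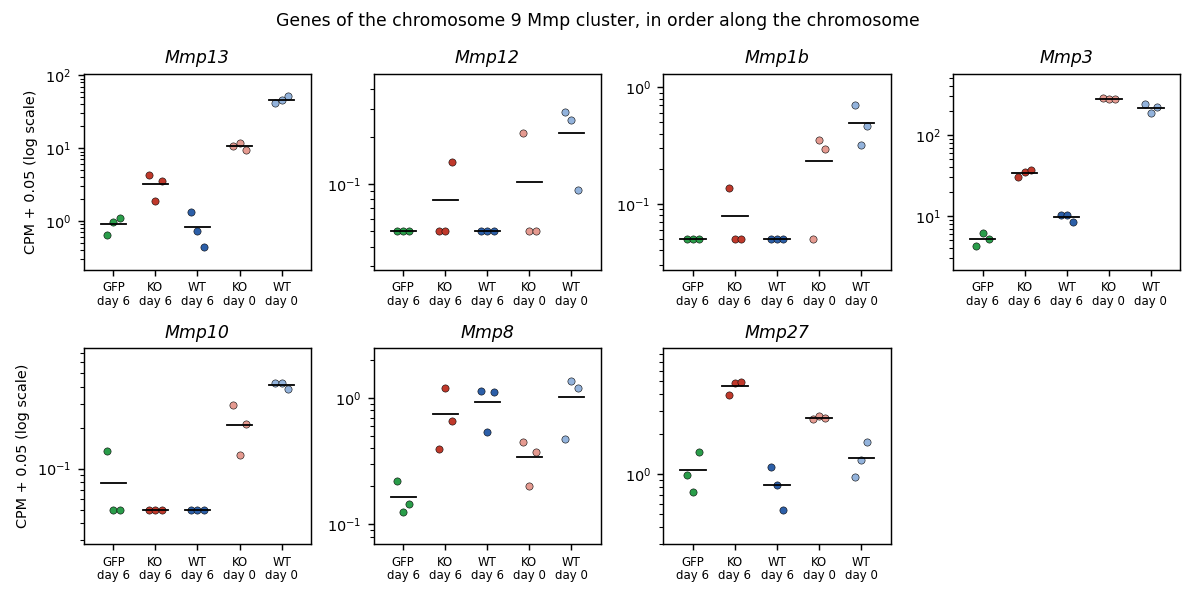
CPM plus 0.05 on a log axis for the 7 neighbouring Mmp genes of chromosome 9, in chromosomal order, in each library by group, with the group mean as a line. Points at the bottom of the Mmp12, Mmp1b and Mmp10 panels are libraries with 0 counts, Mmp13 and Mmp3 are lower at day 6 than at day 0 in both lines, and Mmp27 is highest in day 6 MIGA2-KO cells.

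Among the ADAMs Adam12 and Adam15 rose over time in both lines, and the sheddase Adam10 was higher in MIGA2-KO than in WT at both days. Adam10, the main Notch sheddase (ENSMUSG00000054693, chromosome 9: 70678997 to 70780229, forward strand), stood at 167, 166 and 164 CPM in MIGA2-GFP, 228, 250.03 and 265 in MIGA2-KO and 107, 77.1 and 88.9 in WT, all at day 6, and at 255, 266 and 253 in MIGA2-KO and 97.9, 150.1 and 182 in day 0 WT cells. MIGA2-KO libraries lay above all WT libraries at each day, and MIGA2-GFP above all WT libraries at day 6. It was higher than in WT in MIGA2-GFP (0.86 ± 0.17, adjusted p = 0.00201), in day 6 MIGA2-KO cells (1.44 ± 0.18, adjusted p = 1.09e-05) and in day 0 MIGA2-KO cells (0.85 ± 0.17, adjusted p = 0.0022). It fell over time in WT (-0.65 ± 0.17, adjusted p = 0.00412). Adam17, the TNF-releasing sheddase, averaged 103 ± 3.34 CPM in MIGA2-GFP, 91 ± 8.76 in MIGA2-KO and 84.2 ± 7.07 in day 6 WT cells, and 105 ± 2.75 in MIGA2-KO and 79.9 ± 13.9 in day 0 WT cells. Its WT change of 0.076 ± 0.12, adjusted p = 0.598 did not pass and turned to -0.060 without WT day 0 replicate 1, but passed after correction for GC content and length (0.29, adjusted p = 0.0025). The day 0 excess in MIGA2-KO (0.40 ± 0.12, adjusted p = 0.0201) was lost without WT day 0 replicate 1 (0.27) or MIGA2-KO day 0 replicate 2 (0.39), and with only the groups compared (adjusted p = 0.0698). Exons of Iah1 overlap Adam17 on the opposite strand, with 13699 counts against 19547.

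Adam12, meltrin alpha, which cleaves IGF-binding proteins (ENSMUSG00000054555, chromosome 7: 133883199 to 134232146, reverse strand), stood at 133, 137 and 145 CPM in MIGA2-GFP, 94.5, 95.9 and 107 in MIGA2-KO and 179, 154 and 159 in WT, all at day 6. At day 0 there were 28.7, 28.7 and 28.5 in MIGA2-KO and 12.3, 21.1 and 25.2 in WT. All day 6 libraries exceeded all day 0 libraries, and WT at day 6 exceeded both other lines. It rose in MIGA2-KO (1.79 ± 0.18, adjusted p = 1.54e-06) by less than in WT (3.06 ± 0.19, adjusted p = 2.82e-09), and the changes differed by -1.27 ± 0.25, adjusted p = 0.00188. It was lower in MIGA2-KO than in day 6 WT cells (-0.73 ± 0.17, adjusted p = 0.00247), a value that became -1.34 after correction for GC content and length. The day 0 excess in MIGA2-KO (0.55 ± 0.18, adjusted p = 0.0318) was lost without MIGA2-KO day 0 replicate 1, 2 or 3 (0.55, 0.55 and 0.56), with only the groups compared (adjusted p = 0.124) and after correction for GC content and length (0.19). Adam15, metargidin (ENSMUSG00000028041, chromosome 3: 89338542 to 89349996, reverse strand), stood at 402, 384 and 376 CPM in MIGA2-GFP, 227, 319.95 and 298 in MIGA2-KO and 337, 445 and 586 in day 6 WT cells, against 166, 167 and 158 in MIGA2-KO and 142, 130.4 and 102 in day 0 WT cells. It likewise rose in MIGA2-KO (0.78 ± 0.18, adjusted p = 0.00249) by less than in WT (1.87 ± 0.18, adjusted p = 4.58e-07), and the changes differed by -1.09 ± 0.25, adjusted p = 0.00556. It was lower in MIGA2-KO than in day 6 WT cells (-0.69 ± 0.18, adjusted p = 0.00391).

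Adam8, which is typical of leukocytes but also made by other cells, stood at 1.19, 0.992 and 0.952 CPM in MIGA2-GFP, 1.04, 1.81 and 1.31 in MIGA2-KO and 2.53, 5.16 and 4.56 in day 6 WT cells, and at 9.47, 9.17 and 7.94 in MIGA2-KO and 12.7, 12.4 and 11.3 in day 0 WT cells. WT lay above both other lines at day 6. Adam8 fell in MIGA2-KO (-2.66 ± 0.25, adjusted p = 7.17e-07) and in WT (-1.58 ± 0.22, adjusted p = 1.5e-05). At day 6 it was lower than in WT in MIGA2-GFP (-1.95 ± 0.28, adjusted p = 0.000201) and in MIGA2-KO (-1.54 ± 0.27, adjusted p = 0.000224). Adam23, an ADAM without protease activity that is best known in the nervous system, stood at 143, 141 and 150.1 CPM in MIGA2-GFP, 339.96, 425 and 429.6 in MIGA2-KO and 153, 125 and 133 in day 6 WT cells, and at 418, 426 and 443 in MIGA2-KO and 182, 215 and 227 in day 0 WT cells. All MIGA2-KO libraries exceeded all libraries of the other lines, at day 6 (1.54 ± 0.12, adjusted p = 1.46e-07) and at day 0 (1.04 ± 0.12, adjusted p = 2.25e-05). It fell over time in WT (-0.60 ± 0.12, adjusted p = 0.00034). Adam19, meltrin beta, fell in WT (-0.99 ± 0.22, adjusted p = 0.00101) and Adam9, meltrin gamma, passed in no comparison. Adam9 averaged 187 ± 2.51 CPM in MIGA2-GFP, 120.04 ± 5.99 in MIGA2-KO and 147 ± 45.5 in day 6 WT cells, and 169 ± 3.61 in MIGA2-KO and 167 ± 51.1 in day 0 WT cells.

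The remaining tested ADAMs were near 1 CPM. Adam5, a gene known from the testis, had 0 counts in day 6 WT cells and 103 in day 0 WT cells, at least 14.5-fold lower, and was lower in MIGA2-KO than in day 0 WT cells (-1.81 ± 0.47, adjusted p = 0.0118), a call that ended without MIGA2-KO day 0 replicate 1 (-1.67). It had 9 counts in day 6 MIGA2-GFP cells, at least 2.69-fold higher than in WT, a call that ended without WT day 6 replicate 2 or 3 or MIGA2-GFP day 6 replicate 1. Adam33 averaged 2.49 ± 0.207 CPM in MIGA2-GFP, 0.543 ± 0.449 in MIGA2-KO and 1.08 ± 0.331 in day 6 WT cells, 1.86 ± 0.581 in day 0 MIGA2-KO cells and 1.62 ± 0.4 in day 0 WT cells. It fell in MIGA2-KO (-1.77 ± 0.45, adjusted p = 0.00515, and -2.63 without MIGA2-KO day 6 replicate 1). Its excess in MIGA2-GFP over WT (1.20 ± 0.40, adjusted p = 0.0308) was lost without WT day 6 replicate 1 (1.07) or 3 (1.06) and without any 1 of the MIGA2-GFP libraries (1.12, 1.23 and 1.22). The exons of Adam1a overlap in part those of other genes on the same strand (Gm42878 and Mapkapk5). Its 52 counts in day 6 MIGA2-KO cells and 18 in day 0 MIGA2-KO cells are therefore uncertain. Its call over time in MIGA2-KO (1.62 ± 0.55, adjusted p = 0.0271) ended without replicate 1 or 2 of MIGA2-KO day 0 or replicate 2 or 3 of MIGA2-KO day 6 (values 1.30 to 1.59).

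The ADAMTS proteases held the member with the largest log2 fold change upward in WT, Adamts15. Adamts15, a versican-cleaving protease (ENSMUSG00000033453, chromosome 9: 30899155 to 30922452, reverse strand), stood at 60.7, 60.3 and 60.9 CPM in MIGA2-GFP, 49.9, 75.6 and 73.4 in MIGA2-KO and 137, 124 and 115 in WT, all at day 6. At day 0 it was close to 1 CPM, with 1.12, 1.53 and 1.46 in MIGA2-KO and 1.41, 1.49 and 1.12 in WT. Both lines at day 6 lay far above day 0, in MIGA2-KO (5.59 ± 0.20, adjusted p = 3.12e-11) and in WT (6.53 ± 0.19, adjusted p = 1.51e-12), and WT lay above both other lines. At day 6 Adamts15 was lower than in WT in MIGA2-GFP (-1.05 ± 0.14, adjusted p = 0.000141) and in MIGA2-KO (-0.92 ± 0.14, adjusted p = 8.94e-05).

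Adamts9, another versican-cleaving protease (ENSMUSG00000030022, chromosome 6: 92772699 to 92943492, reverse strand), stood at 64.6, 68.1 and 69.6 CPM in MIGA2-GFP, 17.6, 7.49 and 6.62 in MIGA2-KO and 91.4, 74.4 and 61.6 in WT, all at day 6. Before differentiation it stood at 12.7, 12.9 and 11.3 in MIGA2-KO and 11.4, 17.5 and 20.5 in WT. MIGA2-GFP overlapped WT at day 6, and MIGA2-KO lay far below both. It rose in WT (log2 fold change 2.20 ± 0.29 SE, adjusted p = 9.12e-06) but not by call in MIGA2-KO (-0.22 ± 0.31, adjusted p = 0.599), and the difference of -2.42 ± 0.42, adjusted p = 0.000694 was the most negative of the called members. MIGA2-KO lay below WT at day 6 (-2.85 ± 0.31, adjusted p = 3.28e-06). Without MIGA2-KO day 6 replicate 1, its highest MIGA2-KO library, the MIGA2-KO change was -0.80 and passed (adjusted p = 0.0155), as it did with the 3 libraries left out (-0.77), and without replicate 3 it was 0.025. Adamts1, which also cleaves versican, stood at 209.97, 199.99 and 195 CPM in MIGA2-GFP, 397, 535 and 538 in MIGA2-KO and 394, 198 and 189 in day 6 WT cells, and at 714, 724 and 716 in MIGA2-KO and 421, 877 and 905 in day 0 WT cells. It fell in WT (-1.50 ± 0.29, adjusted p = 0.000319, and -2.19 with the 3 libraries left out). In MIGA2-KO its change of -0.55 ± 0.28, adjusted p = 0.126 did not pass, but it did with only the groups compared in the fit (adjusted p = 0.00313) and with the 3 libraries left out (adjusted p = 2.74e-06). Its excess in MIGA2-KO over WT at day 6 (0.91 ± 0.28, adjusted p = 0.0119), where all MIGA2-KO libraries lay above all WT libraries, was lost without WT day 6 replicate 2 (0.76) or 3 (0.74).

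Adamts4 and Adamts5 are the main aggrecanases. Adamts4 stood at 5.97, 6.56 and 5.52 CPM in MIGA2-GFP, 11.2, 16.9 and 16 in MIGA2-KO and 7.14, 5.07 and 5.05 in day 6 WT cells, and at 47.3, 45.6 and 44.6 in MIGA2-KO and 22.5, 44.7 and 40.5 in day 0 WT cells. It fell in MIGA2-KO (-1.64 ± 0.23, adjusted p = 3.24e-05) and in WT (-2.64 ± 0.24, adjusted p = 2.44e-07) and was higher in MIGA2-KO than in day 6 WT cells (1.35 ± 0.25, adjusted p = 0.000334). Adamts5 fell in MIGA2-KO (-0.77 ± 0.10, adjusted p = 1.59e-05) and in WT (-0.97 ± 0.10, adjusted p = 7.59e-07), with 74.6 ± 6.42 CPM in MIGA2-KO and 55.8 ± 1.91 in day 6 WT cells, and 128 ± 1.39 in MIGA2-KO and 109 ± 13.1 in day 0 WT cells. Its excess in MIGA2-KO over WT at day 6 (0.42 ± 0.10, adjusted p = 0.00235) had the opposite sign after correction for GC content and length (-0.49, adjusted p = 0.00383).

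Adamts2 and Adamts14 remove the amino-terminal propeptides of fibrillar procollagens. Adamts2 (ENSMUSG00000036545, chromosome 11: 50602084 to 50807573, forward strand) stood at 95.6, 88.4 and 94.4 CPM in MIGA2-GFP, 259, 442 and 446 in MIGA2-KO and 91.9, 97.1 and 98.7 in WT, all at day 6. At day 0 there were 161, 150.4 and 149 in MIGA2-KO and 135, 164 and 136 in WT. MIGA2-KO at day 6 stood above every other library of the series. It rose in MIGA2-KO (1.31 ± 0.16, adjusted p = 1.12e-05) and fell in WT (-0.60 ± 0.16, adjusted p = 0.00462, not called after correction for GC content and length, -0.19), and the 2 changes differed (1.91 ± 0.23, adjusted p = 3.53e-05). MIGA2-KO exceeded WT at day 6 (2.00 ± 0.17, adjusted p = 3.23e-07). The mRNA of its substrate Col1a1 was at 3596, 7686 and 6939 CPM in day 6 MIGA2-KO cells, against 1404, 1484 and 1669 in day 6 WT cells. Adamts14 moved the other way, falling in MIGA2-KO (-0.79 ± 0.18, adjusted p = 0.0021) and standing lower in MIGA2-KO than in day 6 WT cells (-0.80 ± 0.18, adjusted p = 0.00134). Adamts14 was at 9.65, 10.1 and 6.18 CPM in MIGA2-KO and 13.1, 16.8 and 15.5 in day 6 WT cells.

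Adamts7 and Adamts12, a related pair that degrade cartilage oligomeric matrix protein, moved in opposite directions. Adamts12 (ENSMUSG00000047497, chromosome 15: 11064790 to 11349231, forward strand) stood at 163, 164 and 167 CPM in MIGA2-GFP, 276, 394 and 417 in MIGA2-KO and 281, 178 and 157 in day 6 WT cells, and at 54.5, 55.9 and 52.8 in MIGA2-KO and 34.3, 68.5 and 80.8 in day 0 WT cells. It rose in MIGA2-KO (2.73 ± 0.28, adjusted p = 1.61e-06) and in WT (1.75 ± 0.27, adjusted p = 4.54e-05). MIGA2-KO and WT overlapped at day 6, and the excess in MIGA2-KO (0.82 ± 0.26, adjusted p = 0.0149) was lost without WT day 6 replicate 2 (0.73) or 3 (0.67) or MIGA2-KO day 6 replicate 3 (0.71), and after correction for GC content and length (0.11). Adamts7 stood at 5.63, 7.71 and 6.47 CPM in MIGA2-GFP, 15.8, 22.2 and 20.7 in MIGA2-KO and 4.43, 3.99 and 7.86 in day 6 WT cells, against 73.8, 77.3 and 68.9 in MIGA2-KO and 43, 52.5 and 45.2 in day 0 WT cells. It fell in MIGA2-KO (-1.90 ± 0.19, adjusted p = 1.54e-06) by less than in WT (-3.11 ± 0.22, adjusted p = 1.03e-08), and the changes differed by 1.21 ± 0.28, adjusted p = 0.00589. MIGA2-KO exceeded WT at day 6 (1.85 ± 0.22, adjusted p = 7.47e-06). The day 0 excess in MIGA2-KO (0.64 ± 0.18, adjusted p = 0.0155) was lost without MIGA2-KO day 0 replicate 2 (0.61). Exons of Adamts7 overlap Tbc1d2b on the opposite strand, which had more counts. The counts of Adamts4 are also uncertain.

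Adamts6 and Adamts10, known for their part in fibrillin microfibrils, fell in both lines. Adamts10 fell in MIGA2-KO (-1.32 ± 0.15, adjusted p = 4.66e-06) and in WT (-1.86 ± 0.15, adjusted p = 5.03e-08). It was lower in MIGA2-KO than in day 0 WT cells (-0.54 ± 0.14, adjusted p = 0.00873), a call lost without MIGA2-KO day 0 replicate 3 (-0.45). Adamts6 fell in MIGA2-KO (-1.83 ± 0.46, adjusted p = 0.00482) and in WT (-2.44 ± 0.47, adjusted p = 0.000354, and -3.72 without WT day 6 replicate 1), with 3.22, 2.64 and 2.26 CPM in MIGA2-KO and 4.61, 1.27 and 0.485 in day 6 WT cells, and 10.5, 8.18 and 10.2 in MIGA2-KO and 6.55, 13.9 and 14.5 in day 0 WT cells.

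**Figure D4:**
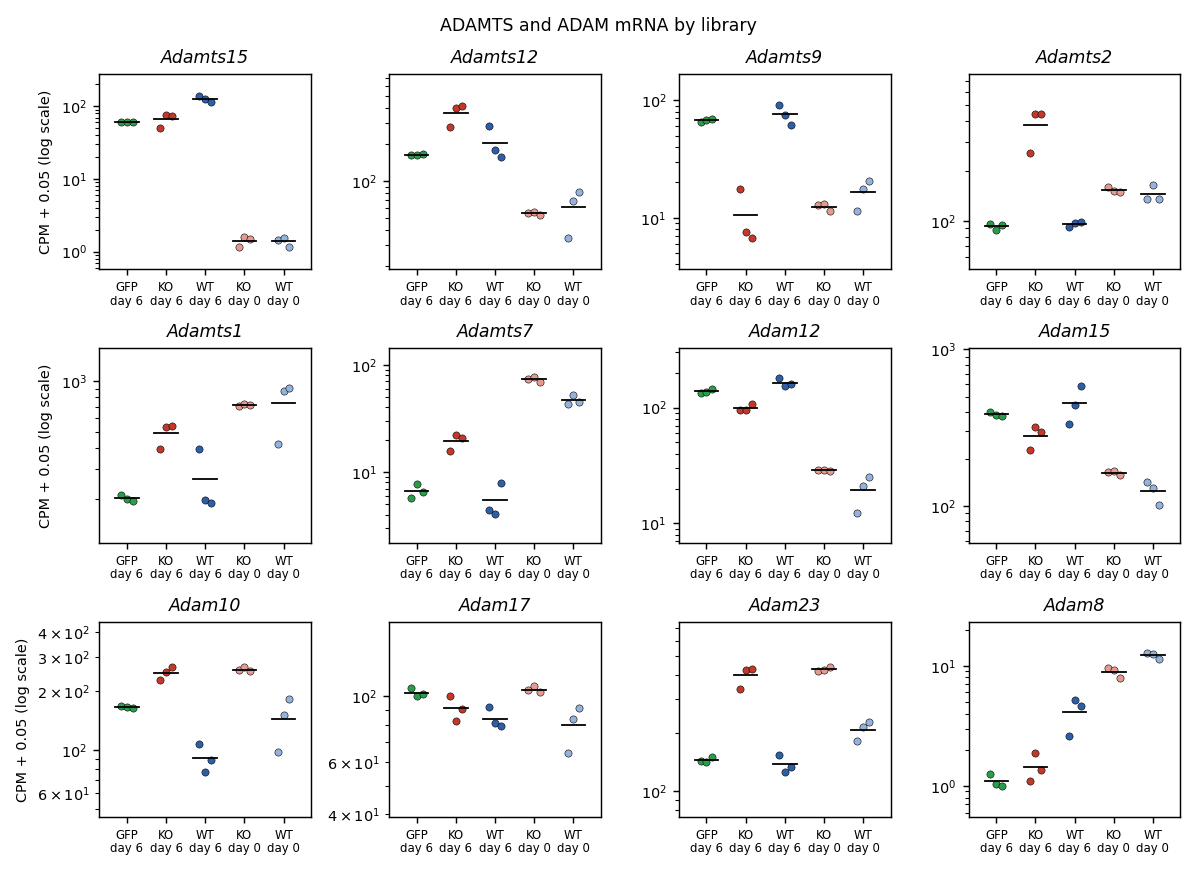
CPM plus 0.05 on a log axis for ADAM and ADAMTS members in each library, by group from MIGA2-GFP day 6 on the left to WT day 0 on the right, with the group mean as a line. Adamts15 and Adam12 are high in every day 6 group, Adamts9 is high in WT and MIGA2-GFP at day 6 and low in MIGA2-KO, and Adamts2 is highest in day 6 MIGA2-KO cells.

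The ADAMTS-like proteins have the ancillary domains of ADAMTS proteases without the catalytic domain, and some bind fibrillin. Adamtsl4 (ENSMUSG00000015850, chromosome 3: 95676201 to 95687917, reverse strand) stood at 41.7, 40.4 and 43.5 CPM in MIGA2-GFP, 84, 170.1 and 142 in MIGA2-KO and 61.2, 67.8 and 79.2 in WT, all at day 6, and at 37.9, 34.9 and 34.8 in MIGA2-KO and 13.2, 15.1 and 13 in day 0 WT cells. The day 6 libraries lay above those of day 0 in each line, in MIGA2-KO (1.88 ± 0.19, adjusted p = 1.7e-06) and in WT (2.33 ± 0.20, adjusted p = 9.96e-08). At day 6 MIGA2-GFP lay below WT (-0.73 ± 0.19, adjusted p = 0.00951) and MIGA2-KO above it (0.93 ± 0.19, adjusted p = 0.000721), and MIGA2-KO was also above WT at day 0 (1.38 ± 0.20, adjusted p = 0.00016). Adamtsl5 (ENSMUSG00000043822, chromosome 10: 80339110 to 80348412, reverse strand) stood at 18.4, 17.5 and 17.8 CPM in MIGA2-GFP, 44.2, 78.8 and 72.2 in MIGA2-KO and 8.77, 10.03 and 12.1 in day 6 WT cells, and at 96.6, 81.6 and 79.7 in MIGA2-KO and 52.6, 45.9 and 33.5 in day 0 WT cells. It fell in WT (-2.09 ± 0.22, adjusted p = 8.1e-07) and the change in MIGA2-KO had an adjusted p of 0.116, with a difference of 1.69 ± 0.29, adjusted p = 0.000692. MIGA2-KO exceeded WT at day 6 (2.66 ± 0.22, adjusted p = 3.03e-07) and at day 0 (0.97 ± 0.20, adjusted p = 0.00232), and the excess in MIGA2-GFP over WT (0.79 ± 0.22, adjusted p = 0.0132) was lost without WT day 6 replicate 2 (0.76). Adamtsl2 had 0 counts in day 0 MIGA2-KO cells, against 27 in day 0 WT cells, at least 4.55-fold lower. It had 9 counts in day 6 MIGA2-KO cells, against 36 in day 6 WT cells. Its rise over time was at least 3.23-fold in MIGA2-KO, a call lost without MIGA2-KO day 6 replicate 1 and with the 3 libraries left out (adjusted p = 0.0774), and in WT was 1.64 ± 0.49, adjusted p = 0.0102, lost without WT day 6 replicate 3 (1.04). The lower level in MIGA2-KO than in day 6 WT cells (-2.12 ± 0.60, adjusted p = 0.00822) was -1.51 and lost its call without WT day 6 replicate 3, and was -3.08 without MIGA2-KO day 6 replicate 1.

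Line-to-line differences in the time course were close to the threshold for some members. That of Adam19 (0.90 ± 0.31, adjusted p = 0.0412) lost its call without each library of the 2 lines other than WT day 0 replicate 1 and WT day 6 replicate 1 (values 0.72 to 0.96), with a replicate block (adjusted p = 0.0673) and with only the groups compared (adjusted p = 0.0712). That of Adam23 (0.49 ± 0.16, adjusted p = 0.0358) lost its call without each library other than WT day 0 replicate 1, WT day 6 replicate 1 and MIGA2-KO day 6 replicate 1 (values 0.43 to 0.52), with a replicate block (adjusted p = 0.0566), with only the groups compared (adjusted p = 0.071) and after correction for GC content and length (0.24). For Adamts4 (1.00 ± 0.33, adjusted p = 0.0347) the same 3 libraries were the exceptions (values 0.82 to 1.02), the replicate block gave an adjusted p of 0.0589 and only the groups compared one of 0.0607, and with the 3 libraries left out the difference was 1.61. For Adam8 (-1.09 ± 0.34, adjusted p = 0.0272) the call ended without WT day 0 replicate 3, WT day 6 replicate 2 or 3, MIGA2-KO day 0 replicate 1 or 2, or MIGA2-KO day 6 replicate 1 or 3 (values -0.88 to -1.06). For Adamts14 (-0.77 ± 0.24, adjusted p = 0.0302) it ended without WT day 0 replicate 3, WT day 6 replicate 2 or 3, MIGA2-KO day 0 replicate 1 or 3, or MIGA2-KO day 6 replicate 3 (values -0.57 to -0.78), and with only the groups compared (adjusted p = 0.056). For Adamts15 (-0.95 ± 0.28, adjusted p = 0.0221) it ended without WT day 0 replicate 3 (-0.83) or MIGA2-KO day 0 replicate 2 (-0.85) or 3 (-0.90), and for Mmp27 (1.48 ± 0.44, adjusted p = 0.0219) without replicate 3 of WT day 0 (1.23) or of WT day 6 (1.24).

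**Figure D5:**
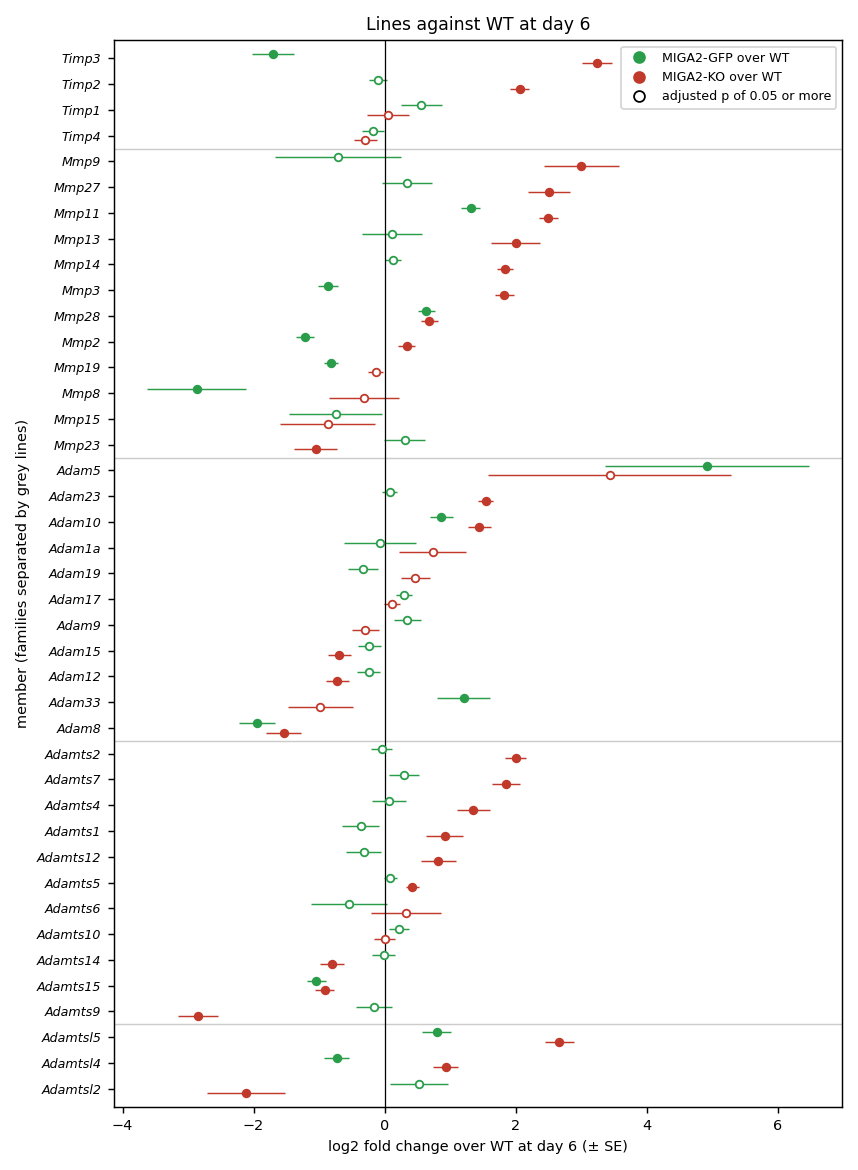
Log2 fold change (x axis) of each tested member (y axis, grouped by family) over WT at day 6 for MIGA2-GFP (green) and MIGA2-KO (red), with bars of 1 SE and open circles where the adjusted p was 0.05 or more. Timp3 and Mmp3 lie left of 0 in MIGA2-GFP (-1.70 and -0.87) and right of it in MIGA2-KO (3.24 and 1.82), Mmp11 and Adam10 lie right of 0 in both, and Adamts9 is far left in MIGA2-KO only, at -2.85; the 2 comparisons share the WT libraries.

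The 14 members with too few counts for a test were Adam4, Adam11, Adam21, Adam32, Adamts8, Adamts16, Adamts17, Adamtsl1, Adamtsl3, Mmp1b, Mmp10, Mmp12, Mmp17 and Mmp24, none above 1.27 CPM in any library. Not all were lower in day 6 WT cells than at day 0. Adam4 averaged 0.898 CPM on 28 counts in day 6 WT cells, against 0.156 on 12 at day 0. Adam32 averaged 0.412 CPM on 13 counts, against 0.0778 on 6. Several others were at or near 0 in day 6 WT cells. Adamts16 had 0 counts there and 33 in day 0 WT cells, at least 4.65-fold lower. Adamtsl1 and Adamtsl3 each had 1 count in day 6 WT cells and 37 in day 0 WT cells, a ratio of 0.064 (95% interval 0.00158 to 0.379). Mmp17, a membrane-type MMP, had 2 counts in day 6 WT cells and 43 in day 0 WT cells, a ratio of 0.11 (95% interval 0.0129 to 0.423). Adamtsl3 had 0 counts in day 6 MIGA2-KO cells and 16 in day 0 MIGA2-KO cells, at least 4.95-fold lower. Adamtsl1 had 1 count in day 0 MIGA2-KO cells, against 37 in day 0 WT cells, a ratio of 0.0534 (95% interval 0.00132 to 0.317). These intervals cover counting error only.

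Outside the families, the plasminogen system supplies plasmin, which activates several pro-MMPs. The plasminogen gene Plg itself had 1 count in day 6 MIGA2-KO cells and none in the other groups. Of 6 tested genes of this system 4 were lower and 1 higher in day 6 WT cells than at day 0, and 5 were lower and 1 higher in MIGA2-KO. Of all genes 33.1% were lower and 31.7% higher in WT, and 21% and 23.3% in MIGA2-KO. The plasminogen activators Plat and Plau fell in MIGA2-KO (-2.64 ± 0.17, adjusted p = 1.11e-08 and -2.41 ± 0.18, adjusted p = 7.21e-08) and in WT (-4.76 ± 0.19, adjusted p = 2.96e-11 and -3.51 ± 0.22, adjusted p = 2.87e-09). Both were higher in MIGA2-KO than in day 6 WT cells (1.53 ± 0.19, adjusted p = 1.13e-05 and 2.12 ± 0.23, adjusted p = 3.15e-06), where 3 of the 6 were higher and 2 lower, against 29.2% and 31.5% of all genes.

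Matrix proteins cut by MMPs and ADAMTS proteases were lower in day 6 WT cells than at day 0 in 10 of 14 tested genes and higher in 3, with a median log2 fold change of -2.08, against -0.041 for all genes. In MIGA2-KO 4 were lower and 5 higher, with a median of -0.012, against 0.018 for all genes. The shares of all genes called are those given for the plasminogen system. The fibrillin gene Fbn1 and thrombospondin Thbs2 fell in MIGA2-KO (-3.10 ± 0.20, adjusted p = 1.14e-08 and -2.29 ± 0.17, adjusted p = 4.53e-08) and in WT (-3.69 ± 0.21, adjusted p = 1.11e-09 and -3.14 ± 0.17, adjusted p = 8.73e-10), whereas the proteoglycan Dcn rose in MIGA2-KO (1.44 ± 0.11, adjusted p = 7.64e-08) and fell in WT (-2.06 ± 0.11, adjusted p = 6.36e-10). At day 6, 9 of the 14 were higher and 2 lower in MIGA2-KO than in WT, among the higher ones Col1a2 (1.69 ± 0.14, adjusted p = 3.85e-07). Other enzymes that process matrix proteins were lower in day 6 WT cells than at day 0 in 6 of 10 tested genes and higher in 1, and at day 6 were higher in MIGA2-KO than in WT in 6 and lower in none. They include the procollagen C-proteinase Bmp1, which fell in WT (-1.44 ± 0.14, adjusted p = 4.58e-07), its enhancer Pcolce (-1.74 ± 0.18, adjusted p = 8.98e-07 in WT), and Loxl2, a collagen cross-linking enzyme, which rose in MIGA2-KO (2.94 ± 0.30, adjusted p = 1.71e-06) and in WT (2.12 ± 0.29, adjusted p = 1.21e-05).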

How the data were processed

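RNA-seq gene counts of 15 libraries in 5 groups were analysed. The authors deposited whole-number counts per gene, and the submitters' processing notes name bcl2fastq 2.19, Trimmomatic, STAR 2.5.4b, featureCounts, edgeR and GRCm38.p5. For the annotation release, strand setting and multimapping reads, nothing is given in the sources used here. Totals of 10748668 to 26003871 counts per library set the precision, and counting intervals cover counting error only. A fold given as at least puts the floor of 3 counts in place of none and takes the count of the other group as exact. It is therefore not a confidence limit.

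From these counts, genes were filtered (edgeR 4.0.16 filterByExpr, minimum count 10, minimum total 15), scaled by TMM and fitted with the quasi-likelihood test in R 4.3.3, with 1 term per group over all 15 libraries. P-values are two-sided and Benjamini-Hochberg adjusted over 12279 genes, with a threshold of 0.05. Each SE was the absolute log2 fold change over the root of its F statistic. CPM use TMM-scaled totals, and lengths are union exons of GENCODE vM21, where 25664 of 25700 identifiers matched. The pipeline was tested on simulated data. The members and gene lists were chosen with earlier results of these data known. Members named were a list of 21, the 3 of each family with the highest mean CPM, and per comparison the 8 with the largest called change in each direction at a mean of at least 1 CPM in a group. Up to 3 genes per context list and comparison were named by smallest adjusted p, apart from results not reported here. Mmp8, the members too low to test and Col1a1 beside Adamts2 were added after their values were seen. Alternatives were DESeq2 1.42.0, RLE scaling, no filter, a fold minimum, only the groups compared, a replicate block, a correction for GC content and length, the 3 libraries that stand apart left out, and each replicate left out. Same-numbered replicates had correlations of their deviations of -0.723 to 0.116. At day 0 each MIGA2-KO replicate matched the same-numbered WT replicate best (0.0839, 0.00512 and 0.116), and elsewhere the best match mostly had another number. Deviations within a group of 3 libraries are not independent, so these values cannot show whether numbers pair samples.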

Additional observations from a re-analysis of the deposited data

Results flagged for a closer look

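For 22 members the change over time differed between the MIGA2-KO and WT lines by the edgeR test of the difference itself (adjusted p under 0.05). The values are the MIGA2-KO change minus the WT change on the log2 scale. The difference was positive for Mmp13 (4.14), Mmp9 (3.62), Timp3 (2.81), Mmp11 (1.96), Mmp14 (1.93), Adamts2 (1.91), Timp2 (1.70), Adamtsl5 (1.69), Mmp27 (1.48), Mmp3 (1.46), Adamts7 (1.21), Adamts4 (1.00), Adam19 (0.90), Mmp2 (0.89) and Adam23 (0.49). It was negative for Adamts9 (-2.42), Adam12 (-1.27), Adam8 (-1.09), Adam15 (-1.09), Adamts15 (-0.95), Adamts14 (-0.77) and Mmp19 (-0.65). The calls for Adam19, Adam23, Adamts4, Adam8, Adamts14, Adamts15 and Mmp27 ended without single libraries, as given with each above.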

How the results depend on the processing

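Of 139 calls of a member in a comparison, 139 were kept with DESeq2, RLE scaling or no low-count filter, 137 with the 3 libraries that stand apart left out, 133 after correction for GC content and length (1 of the others reversed), and 93 with a fold minimum of 1 on the log2 scale. With only the groups compared 124 of 133 were kept. When 1 replicate at a time was left out, 28 of the 139 lost their call at least once (99 of 966 values). The Mmp8 calls were not among the 139 and had no such check. Under a fold minimum 3 members were higher in MIGA2-KO than in WT at day 0, 4 lower in MIGA2-KO than in WT at day 6, 3 higher and 5 lower in MIGA2-GFP than in WT, and 4 had a lower change in MIGA2-KO. With the 3 libraries left out 16 members were lower at day 0 in MIGA2-KO, 10 higher in MIGA2-GFP, and 23 had a higher change in MIGA2-KO. The GC content and length correction gave 12 lower at day 0 in MIGA2-KO and 15 lower in MIGA2-GFP. The counts of lower genes over all genes for these comparisons under this correction are not given here, nor is that for day 0 with the 3 libraries left out. These member counts therefore cannot be read against all genes. Leaving out 1 replicate at a time, members lower at day 0 in MIGA2-KO ranged from 4 to 7 and members with a lower change in MIGA2-KO from 4 to 7.

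Signs reversed for some values, nearly all of them not called. With the 3 libraries left out the WT change of Adam17 was -0.11, and the MIGA2-KO change was 0.044 for Mmp14 and 0.026 for Adam10. Timp1 in MIGA2-KO over WT at day 6 was then -0.70 and passed (adjusted p = 1.23e-05). Leaving out 1 replicate at a time, the WT change of Adam17 ranged from -0.060 to 0.17, the MIGA2-KO change of Mmp14 from -0.20 to 0.015, of Mmp11 from -0.27 to 0.056 and of Adamts9 from -0.80 to 0.025, and Timp1 in MIGA2-KO over WT at day 6 from -0.52 to 0.29. Adamts5 in MIGA2-KO over WT at day 6 was -0.49 after the GC content and length correction. The causes were not tested.

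With a replicate block 134 of the 139 calls were kept, and with this block Timp1 in MIGA2-KO over WT at day 6 was -0.040. Members counted with the block were 9 higher and 23 lower over time in WT, 12 and 14 in MIGA2-KO, and 12 and 7 for the difference. The counts over all genes with the block are not given here, so these member counts have no matching share. Whether the numbers pair the samples is not known.

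Over all genes the counts called were 2020 higher and 2318 lower for MIGA2-GFP over WT, 3581 higher and 3871 lower for MIGA2-KO over WT at day 6, 1981 higher and 2178 lower for MIGA2-KO over WT at day 0, 3890 higher and 4066 lower over time in WT, 2862 higher and 2580 lower over time in MIGA2-KO, and 1678 higher and 1668 lower for the difference between the changes. Under a fold minimum they were 459 and 554 for MIGA2-GFP over WT, 1518 and 1783 for MIGA2-KO over WT at day 6, 400 and 654 for MIGA2-KO over WT at day 0, 2178 and 2200 over time in WT, 1235 and 1086 over time in MIGA2-KO, and 959 and 815 for the difference between the changes. Leaving out the 3 libraries that stand apart gave 3799 higher and 3826 lower for MIGA2-GFP over WT, 3071 higher for MIGA2-KO over WT at day 0, and 3987 and 3669 for the difference between the changes. The GC content and length correction gave 2526 lower for the difference between the changes. Genes higher in MIGA2-GFP numbered 1342 without MIGA2-GFP day 6 replicate 2 and 1169 without WT day 6 replicate 2. Genes lower at day 0 in MIGA2-KO numbered 1383, 1410 and 1428 without each MIGA2-KO day 0 replicate. Without WT day 0 replicate 1 the change differed in 2674 genes upward and 2512 downward.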
